A study of Mus musculus with 24 samples.

Results

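MIN6, a mouse insulinoma line that keeps many features of pancreatic β cells, was compared with and without proinflammatory cytokines in 3 stable lines. All 24 RNA-seq libraries of the series entered the comparison, 12 treated and 12 untreated, with the line as a covariate. The lines carried a lentiviral vector with a scrambled sequence (Scr, the control), one that inhibits miR-146a-5p (ZIP) or one that overexpresses it (OE). Each line was measured in 4 libraries without treatment and in 4 libraries after 24 h with a mixture of IL-1β at 5 ng/ml, IFNγ at 100 ng/ml and TNFα at 10 ng/ml (Scr+Cy, ZIP+Cy and OE+Cy). All groups shared puromycin selection, and each line was expanded from picked single clones. Scr and ZIP vectors shared a backbone with one fluorescent protein, and the OE vector had another, so the microRNA, the clone and, for OE, the backbone cannot be told apart. The question was which genes answer the cytokines in the same direction and to a similar extent in all 3 lines. The microRNA itself was not analysed here.

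IFNγ binds a receptor whose JAK1 and JAK2 kinases activate STAT factors, which bind GAS elements in DNA. STAT complexes with IRF9, and IRF factors made in response, bind the interferon-stimulated response element (ISRE). IL-1β and TNFα release NF-κB from its IκB inhibitors, and NF-κB then drives genes of inflammation together with the inhibitors that end its own signal. In β cells this mixture is known to raise antigen presentation, chemokines and nitric oxide synthesis and to impair insulin secretion.

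The libraries held 26657792 to 37168232 estimated counts, with a median of 30701023, and 17696 genes were tested. The sum of 10 β cell markers ran from 18755.7 to 43787.8 CPM (counts relative to the library size, scaled by TMM) over the libraries, with Ucn3 close to 0 in Scr and ZIP. Of 8 leukocyte markers, 6 were measured, and their sum lay between 0.899 and 4.68 CPM in every library. Replicate 1 of Scr, of Scr+Cy and of ZIP stood apart by nerve and connective tissue transcripts. Col1a1, a collagen gene, was at 5.50, 16.3 and 12.6 CPM there and at 2.41 or less in all others. The sum of 5 nerve markers reached 120.6, 273.7 and 177.4 CPM in these groups, and that of the 6 connective tissue and muscle markers measured reached 11.7, 28.4 and 25.1 CPM. The main counts of genes are therefore also given without these 3 libraries, and the part of these transcripts in single genes was not tested. Labels give each replicate number a code that all 6 groups share and whose meaning they do not state, so the p-values measure the spread between these libraries, which may be technical.

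Over all lines, 2715 of 17696 genes (15.3%) were called, which means that they moved by 1.5-fold or more with an unadjusted p under 0.05. Of these, 1864 (10.5%) were higher and 851 (4.81%) were lower with cytokines. At an adjusted p under 0.05 as well, 2442 remained. A gene was counted as shared where it passed the same limits in Scr, ZIP and OE separately and in the same direction. There were 829 such genes among the higher (4.68% of all tested) and 168 among the lower (0.949%). Shared rises made up 59.4% of the genes called higher in Scr, 64.3% in ZIP and 36.0% in OE, and shared falls 35.6%, 18.2% and 11.8% of those called lower. A response was counted as of similar extent where the largest and the smallest of the 3 fold changes were within 1.5 times. This left 265 genes that rose (1.5%) and 92 that fell (0.52%). Without the 3 libraries with nerve markers the counts were 2870 called, 1005 shared (823 higher and 182 lower) and 347 of similar extent (242 and 105). Predicted or unnamed transcripts made up 38 of the similar rises and 10 of the similar falls. Several of these rises were on chromosome 14, and whether reads are divided between them was not tested. Treated and untreated libraries did not overlap within any line for 288 of the 357 genes (80.7%), against 10.7% of all genes tested, which the limits favour. Since these limits chose the genes, the fold changes of members are given below as a description.

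Taken over all sizes of response, the share of similar genes was smaller among rises than among falls. Of the shared rises, 32.0% were of similar extent, and of the shared falls 54.8%. At a like size of response the order was reversed. Under a mean log2 fold change of 1 the shares were 96.9% of rises and 82.6% of falls, and from 1 to 2 they were 43.1% and 38.0%. Large responses were mostly rises. The cytokine response was largest in OE for 551 of the 829 shared rises, in ZIP for 132 and in Scr for the rest. Among the 265 rises of similar extent, OE was still the largest for 139, Scr for 66 and ZIP for 60. The median log2 fold change of the similar rises was 1.27 in Scr, 1.28 in ZIP and 1.30 in OE. Of these 265 genes, 11 had 3 reads or fewer in every untreated library of a line, and 5 had this in all 3 lines. A fold change against 3 reads was also taken as a lower bound. For the response over all lines it was used only for genes at this level in all 3 lines. It moved the median of the 265 genes over all lines from 1.29 to 1.255. A test for a difference between the 3 responses (line by cytokine interaction, adjusted p under 0.05) was passed by 3648 of all genes (20.6%, or 3116 genes without the 3 libraries with nerve markers), by 337 of the 997 shared genes (33.8%) and by 43 of the 357 similar ones. The limit of 1.5 times selects against such genes, so nothing is read from the last count. For 247 of the 357 genes, all 3 pairwise differences had a 95% interval within a factor of 2.

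The share of similar genes was smaller where the response was larger. Among shared rises with a mean log2 fold change under 1, 93 of 96 were of similar extent. From 1 to 2 it was 106 of 246, from 2 to 4 it was 50 of 239, and at 4 or more 16 of 248. Shared falls followed the same order, with 57 of 69 under 1, 35 of 92 from 1 to 2, and 0 of 7 from 2 to 4. Large rises often began near 0, where extent is poorly measured. Of the 248 largest rises, 125 had a line whose untreated libraries all had 3 reads or fewer. Among the 123 without such a line, 10 were of similar extent (8.13%). A shared gene passed 1.5-fold in every line, so a mean log2 fold change under 1 leaves little room for a wide range. The high share among small responses is therefore in part set by the limits. The plot shows the size and range of each gene.

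**Figure D1:**
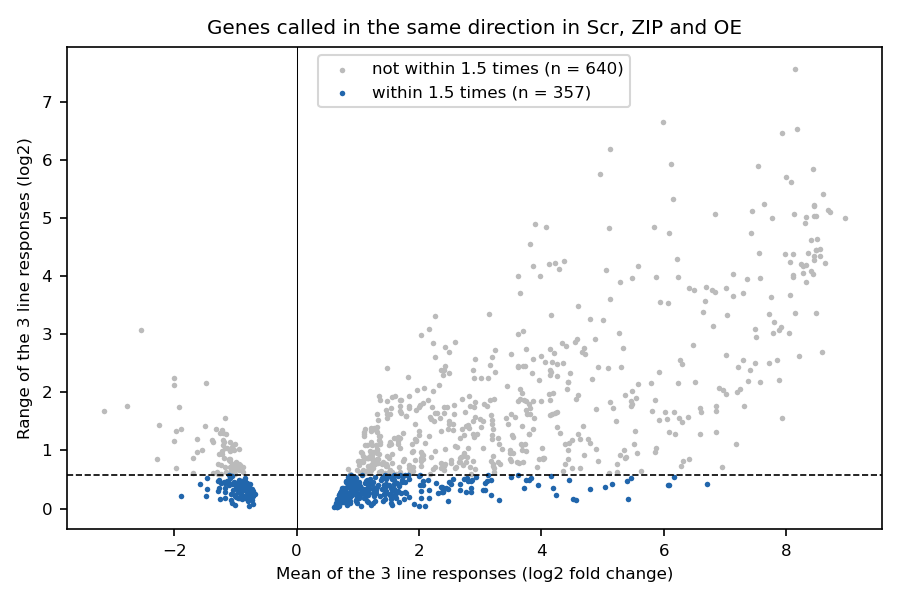
Each point is one of the 997 genes called in the same direction in all 3 lines, with the mean of its 3 log2 fold changes (x axis) and their range (y axis). The 357 genes below the dashed line, which marks 1.5 times, lie mostly near small responses, and the range widens among the larger rises.

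Promoters of genes with a similar response were read from RefSeq (GRCm38.p6) from 250 bases before to 50 bases after the start. Of the tested genes, 13884 of 17696 were matched by symbol, among them 220 of the 265 similar rises and 71 of the 92 similar falls. An ISRE core was searched as GAAANNGAA, a GAS as TTCNNNGAA and a κB core as GGGANTTTC, on both strands. These letters are shown in 3 promoters, chosen because they hold more than 1 match beside a response of similar extent. They are not typical of the named genes. Of 20 named rises of similar extent with a promoter, 8 held any match, 7 an ISRE core, 2 a κB core and 0 a GAS. Of 5 named falls, 3 held any match. The first is from Ifih1, which encodes the viral RNA sensor MDA5 (chr2:62646206-62646505, minus strand). The next is from Oas1g, of the 2′-5′-oligoadenylate synthetases (chr5:120887564-120887863, minus strand). The last is from Nfkbia, which encodes IκBα, the inhibitor that holds NF-κB in the cytoplasm (chr12:55492598-55492897, minus strand). Each is written 5′ to 3′ along its gene, and capitals mark the matches.
Ifih1: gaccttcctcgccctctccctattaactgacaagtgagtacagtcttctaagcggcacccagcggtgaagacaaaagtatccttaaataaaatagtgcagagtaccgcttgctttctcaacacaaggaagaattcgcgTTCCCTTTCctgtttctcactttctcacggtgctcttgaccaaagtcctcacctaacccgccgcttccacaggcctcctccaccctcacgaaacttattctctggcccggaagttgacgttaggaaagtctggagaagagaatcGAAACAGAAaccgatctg
Oas1g: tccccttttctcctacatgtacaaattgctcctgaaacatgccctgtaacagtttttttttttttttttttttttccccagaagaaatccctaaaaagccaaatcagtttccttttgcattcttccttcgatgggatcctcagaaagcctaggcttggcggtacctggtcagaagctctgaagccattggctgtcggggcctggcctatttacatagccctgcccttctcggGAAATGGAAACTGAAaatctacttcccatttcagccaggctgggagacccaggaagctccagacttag
Nfkbia: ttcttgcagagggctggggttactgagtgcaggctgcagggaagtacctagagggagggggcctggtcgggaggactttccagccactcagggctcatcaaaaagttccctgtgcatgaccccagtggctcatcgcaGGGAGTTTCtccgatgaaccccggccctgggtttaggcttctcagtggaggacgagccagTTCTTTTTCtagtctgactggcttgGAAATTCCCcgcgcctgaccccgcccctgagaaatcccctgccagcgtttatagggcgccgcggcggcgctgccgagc

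In Ifih1 the ISRE matches began 112 bases before and 32 bases after the start, with 0 as the first transcribed base. In Oas1g they overlapped, beginning 18 and 12 bases before the start. In Nfkbia the κB matches began 113 and 28 bases before the start and an ISRE match 53 bases before it. Over all promoters of the similar rises, an ISRE core was present in 50 of 277 (18.1%), against 1263 of 17365 promoters of all tested genes (7.27%). Shared rises that were not of similar extent had it in 109 of 505 (21.6%), and similar falls in 8 of 94 (8.51%). A GAS was present in 10.8% of promoters of similar rises and in 7.05% of all tested, and a κB core in 2.89% and 0.990%. The ISRE share was thus above that of all tested genes in both kinds of shared rise, a difference given as a description. These are matches of letters in a short window and not binding sites.

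The 6 largest rises of similar extent with a mean of at least 5 CPM in treated libraries and no overlap within a line, predicted symbols left out, were Slfn8, Ifih1, Tnfsf10, Ube2l6, Oas1g and Ddx58. The limit on level used only the treated libraries, in which these genes were high. Gene positions are those of RefSeq on GRCm38.p6. Ifih1 (chr2:62595618-62646255) ran from 0.372 to 1.74 CPM (median 0.613) in untreated libraries and from 34.4 to 113.4 (median 48.0) in treated ones. The ranges were far apart in every line. Its log2 fold change was 6.25 in Scr, 5.84 in ZIP and 6.17 in OE, and 6.09 ± 0.13 (SE) over all lines. Ddx58, which encodes the related sensor RIG-I (chr4:40203777-40239825), was at 5.13, 4.63, 5.03 and 4.61 CPM in Scr and at 87.5, 130.6, 129.7 and 102.7 in Scr+Cy. It was at 5.56, 4.19, 3.78 and 6.45 in ZIP and at 86.9, 113.5, 131.1 and 120.5 in ZIP+Cy. In OE the 4 values were 6.98, 6.64, 6.51 and 5.14 and in OE+Cy 141.5, 135.9, 178.1 and 176.3. No treated library came near an untreated one, and the log2 fold changes of 4.53, 4.50 and 4.64 differed by no more than their standard errors of 0.17. Tnfsf10, which encodes the death ligand TRAIL, rose from a median of 5.95 CPM (1.75 to 16.0) to 435.9 (154.3 to 663.1). The log2 fold changes of Tnfsf10 were 6.08, 5.85 and 6.26.

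Ube2l6, the E2 enzyme that conjugates ISG15 to proteins, ran from 2.63 to 8.90 CPM untreated and from 138.5 to 231.1 treated (log2 fold change 5.40 ± 0.14). Oas1g ran from 0.287 to 1.90 and from 12.01 to 53.3 CPM (5.03 ± 0.16), and Slfn8, of the Schlafen family, from 0 to 0.276 and from 2.40 to 17.6 CPM (6.23 ± 0.29). The treated and untreated libraries did not overlap in any line for these genes. Oas1g and Slfn8 have close paralogs between which reads can be divided, so their values are uncertain. For Ifih1, Tnfsf10, Ube2l6, Oas1g and Slfn8 the 95% interval of at least 1 pairwise difference passed a factor of 2. Their similarity is therefore less well bounded than that of Ddx58.

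All 28 antiviral interferon-stimulated genes measured rose in every line, against 4.68% of all genes, and 8 of them were of similar extent. The list median log2 fold change was 4.98, against 0.0013 over all genes. Besides Ifih1, Ddx58 and Ube2l6, the 8 were Eif2ak2 (PKR), Samhd1, Adar, Trim25 and Lgals3bp. Lgals3bp, which encodes a secreted glycoprotein (chr11:118392747-118401959), had 223.0, 232.5, 205.9 and 177.0 CPM in Scr and 822.4, 1038, 896.6 and 871.2 in Scr+Cy. It had 256.8, 254.2, 209.7 and 241.5 in ZIP and 951.7, 1057, 932.9 and 1115 in ZIP+Cy. In OE it had 245.1, 190.4, 171.1 and 148.8, and in OE+Cy 857.7, 773.3, 776.7 and 801.9. Fold changes in the 3 lines were within 1.03 times of each other, at log2 values of 2.11, 2.08 and 2.09 with a standard error of 0.12 each. Trim25, a ubiquitin ligase that acts on RIG-I, rose by 1.20, 1.15 and 1.504 on the log2 scale, within the limit but unequal by the interaction test (adjusted p = 0.0148, edgeR). The other 20 genes of the list, among them Isg15, Mx2 and Ifit2, rose in all lines but not within 1.5 times. Mx2 rose by 3.57, 3.29 and 5.59 on the log2 scale (interaction adjusted p = 0.000289, edgeR).

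**Figure D2:**
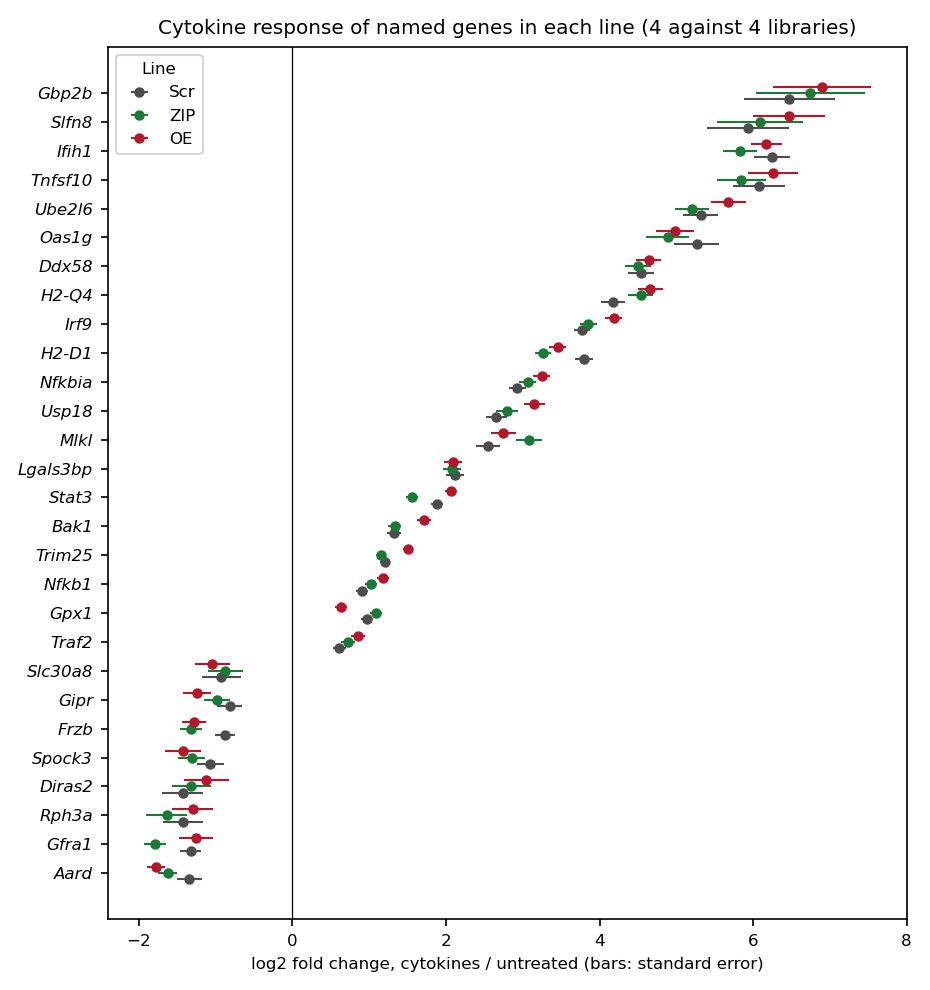
Log2 fold change (x axis) of named genes of similar extent in Scr, ZIP and OE, each from 4 treated and 4 untreated libraries, with standard errors as bars. The 3 points of Lgals3bp and Ddx58 coincide within their bars, and OE lies above the other lines for Bak1 and Trim25 and below them for Gpx1.

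Of 18 interferon signalling factors, 16 were called higher over all lines, 15 in each line, and 3 to a similar extent. Over all genes tested these shares were 10.5%, 4.68% and 1.5%, and the counts of rises in the lists below are read against them. The 3 were Irf9, Stat3 and Nmi. Irf9, a DNA-binding partner of STAT factors (chr14:55603985-55610030), was between 5.38 and 8.40 CPM (median 6.64) in untreated and between 91.1 and 129.3 (median 102.3) in treated libraries. All treated libraries of all lines thus lay within 1.5 times of each other. Its log2 fold changes were 3.77, 3.85 and 4.18, each with a standard error of 0.11. Stat3, which carries the signal of the IL-6 family, rose from 94.3 to 125.5 CPM untreated to 308.5 to 483.3 treated. Stat3 rose by 1.88, 1.55 and 2.06 on the log2 scale, and these differed by the interaction test (adjusted p = 0.00410, edgeR). Irf1, a transcription factor of the interferon response, rose by 3.86, 3.75 and 5.15, well past the limit of 1.5 times. Jak1 (0.27) and Ifngr1 (0.12) changed by less than 1.5-fold.

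The brakes of cytokine signalling held 11 genes called higher among 18 measured, of which 8 were shared and 5 of similar extent. These were Nfkbia, Nfkbie, Nfkbiz, Tnfaip3 and Usp18. All but Usp18 belong to or act on the IκB and NF-κB system. Other members of the list, such as Nfkbib, Tnip1 and Tnip2, do so too, and nothing is read from this. Nfkbiz was listed as a member of the IκB family, and whether it acts as a brake was not tested. Nfkbia (chr12:55489409-55492647) had 19.7, 15.5, 17.3 and 15.5 CPM in Scr and 136.3, 138.2, 146.5 and 97.3 in Scr+Cy. It had 16.3, 17.4, 16.6 and 19.3 in ZIP and 145.6, 135.9, 147.1 and 152.4 in ZIP+Cy. In OE it had 24.2, 20.2, 17.4 and 20.3, and in OE+Cy 190.3, 187.2, 198.2 and 204.3. Every treated library was above every untreated one, OE+Cy was the highest group, and the log2 fold changes were 2.93, 3.06 and 3.25 (SE 0.11 each). Nfkbie (IκBε) rose by 2.82, 3.19 and 3.25 on the log2 scale, Nfkbiz (IκBζ) by 2.55, 2.83 and 3.03, and Tnfaip3, which encodes the ubiquitin-editing enzyme A20, by 2.44, 2.35 and 2.86. Usp18, which removes ISG15 and damps the type I interferon receptor, ran from 11.03 to 21.7 CPM untreated and from 60.9 to 206.3 treated. Across the lines the log2 fold changes were 2.65, 2.80 and 3.15. Socs1, the inhibitor of JAK kinases, was shared but rose more in OE (5.77) than in Scr (3.77) or ZIP (3.72), interaction adjusted p = 0.000528 (edgeR).

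Of 25 measured genes of the NF-κB and TNF/IL-1 pathway, 15 were called higher, 8 were shared, and 4 were of similar extent. The 4 were Nfkb1, Traf2, Myd88 and Bcl3. Nfkb1, which encodes p105 and p50, ran from 37.7 to 58.6 CPM (median 51.5) in untreated and from 75.9 to 137.9 (median 98.4) in treated libraries. Its log2 fold changes were 0.90, 1.02 and 1.18, with standard errors of 0.077 to 0.078. Traf2, an adaptor of TNF receptors, rose from 20.6 to 25.9 CPM to 32.2 to 45.6 CPM, by 0.61, 0.72 and 0.86 on the log2 scale. Bcl3, an IκB protein of the nucleus, rose by 2.26, 2.22 and 2.59, and Myd88, the adaptor of the IL-1 receptor, by 1.20, 1.28 and 1.68. The responses of Myd88 differed by the interaction test (adjusted p = 0.0224, edgeR). Irak1 and Traf6, known targets of miR-146a, were not called, at log2 fold changes of -0.28 and 0.10 over all lines. The 3 responses of Traf6 were 0.10, 0.11 and 0.10.

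MHC class I presentation had 18 of 21 genes higher, all 18 of them shared, and 4 of similar extent. H2-D1, a class I heavy chain, was among the most abundant members, at 136.6 to 298.9 CPM untreated and 2055 to 2889 treated. Its log2 fold changes were 3.80, 3.26 and 3.45 (interaction adjusted p = 0.0214, edgeR). Levels of H2-D1 after cytokines were closer between lines than its fold changes, at 2340 ± 152 (SD, n = 4) for Scr, 2387 ± 62.2 for ZIP and 2557 ± 359 for OE. H2-Q4, another class I gene, rose from 17.9 to 36.4 CPM to 481.0 to 789.3 CPM (4.18, 4.54 and 4.66). Both have close paralogs in the H2 cluster, so their values are uncertain. Erap1, which trims peptides for class I molecules, rose by 2.75, 2.72 and 3.07, and Tapbpl, a peptide editor, by 2.64, 2.54 and 3.05. Both were within the limit but unequal by the interaction test (adjusted p = 0.0106 for Erap1 and 0.0259 for Tapbpl, edgeR). The transporter and immunoproteasome genes rose more unevenly, as Tap2 with 3.50, 3.50 and 5.78 and Psmb9 with 5.69, 5.46 and 8.28.

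Some lists were shared almost in full and held few or no genes of similar extent. All 8 MHC class II genes, all 18 guanylate-binding and immunity-related GTPases and 13 of 16 chemokines and adhesion molecules rose in every line. Of these, only Gbp2b was of similar extent. Gbp2b was at 0 to 0.156 CPM untreated and at 1.47 to 8.48 treated. Its ZIP and OE libraries had 3 reads or fewer when untreated, so the fold change was at least 30.9 in ZIP and at least 54.9 in OE, and its similarity rests on values at the limit of detection. Cxcl10, a chemokine for T cells, rose by 7.56, 6.61 and 10.67 on the log2 scale and Cd74, the class II invariant chain, by 7.60, 6.72 and 10.09. For MHC class II the log2 fold changes had a median of 6.14 in Scr, 5.31 in ZIP and 9.97 in OE, or 5.71, 5.31 and 8.36 with lower bounds in place of fitted values. Corresponding medians of the GTPases were 6.91, 6.50 and 10.79, or 6.58, 6.47 and 10.03 with lower bounds. For the chemokines and adhesion molecules they were 5.67, 5.44 and 8.02, or 3.16, 4.31 and 4.67 with lower bounds. Between 3 and 9 genes of each of these lists had a line at or under 3 reads untreated.

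**Figure D3:**
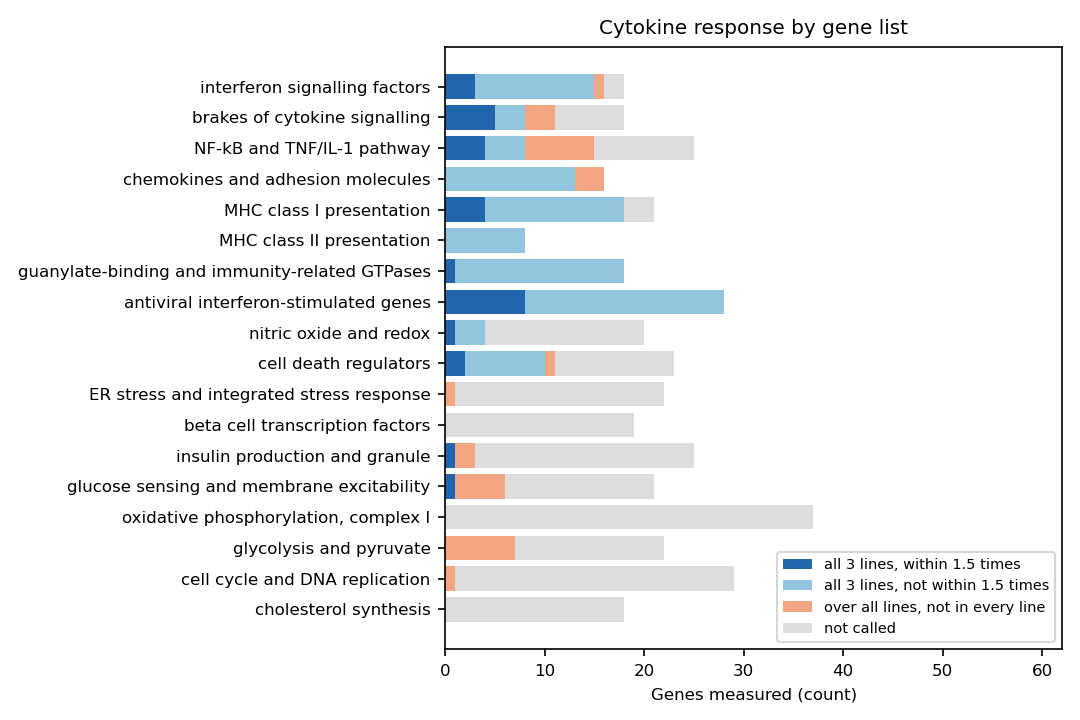
Number of measured genes in each list (x axis), split into those called in all 3 lines within 1.5 times, those called in all 3 lines with wider fold changes, those called over all lines but not in every line, and those not called. The interferon and antigen presentation lists are shared almost whole, and the 8 antiviral genes and 5 members of the list of signalling brakes are the largest similar sets.

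Among cell death regulators, 11 of 23 were called higher, 10 in every line, and 2 to a similar extent, against 10.5%, 4.68% and 1.5% of all genes. Mlkl, the executor of necroptosis, ran from 5.82 to 15.1 CPM (median 12.7) in untreated and from 49.5 to 98.1 (median 81.6) in treated libraries, with log2 fold changes of 2.55, 3.08 and 2.75. Ripk3, the kinase upstream of MLKL, was not analysed here. Bak1, which permeabilizes the outer mitochondrial membrane (chr17:27019812-27028627), had 21.7, 22.9, 25.1 and 20.5 CPM in Scr and 47.6, 54.2, 68.6 and 54.8 in Scr+Cy. It had 23.6, 22.7, 24.4 and 23.6 in ZIP and 52.2, 57.4, 63.2 and 64.6 in ZIP+Cy. In OE it had 24.9, 22.6, 25.7 and 26.8, and in OE+Cy 77.8, 81.9, 80.5 and 87.3. The untreated lines were alike in level, while OE+Cy was above every other library, and the responses of 1.32, 1.33 and 1.71 differed (interaction adjusted p = 0.0328, edgeR). Fas, the receptor of FAS ligand, rose in every line by 5.93, 5.17 and 5.05, outside the limit, and Bid, which links death receptors to mitochondria, by 1.78, 2.69 and 4.17 (interaction adjusted p = 7.83e-08, edgeR).

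Of 20 genes of nitric oxide and redox control, 4 rose in all lines and only Gpx1 to a similar extent. Gpx1, the cytosolic glutathione peroxidase, was at 76.1 ± 8.48 CPM (SD, n = 4) in Scr and 149.1 ± 13.8 in Scr+Cy. It was at 117.4 ± 10.4 in ZIP and 249.2 ± 24.2 in ZIP+Cy, and at 48.6 ± 1.96 in OE and 75.5 ± 3.12 in OE+Cy. Treated and untreated libraries did not overlap within any line, and the response was smallest in OE (0.63, against 0.97 in Scr and 1.09 in ZIP; interaction adjusted p = 0.0144, edgeR). Nos2, the inducible nitric oxide synthase, rose by 7.68, 6.37 and 11.41.

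**Figure D4:**
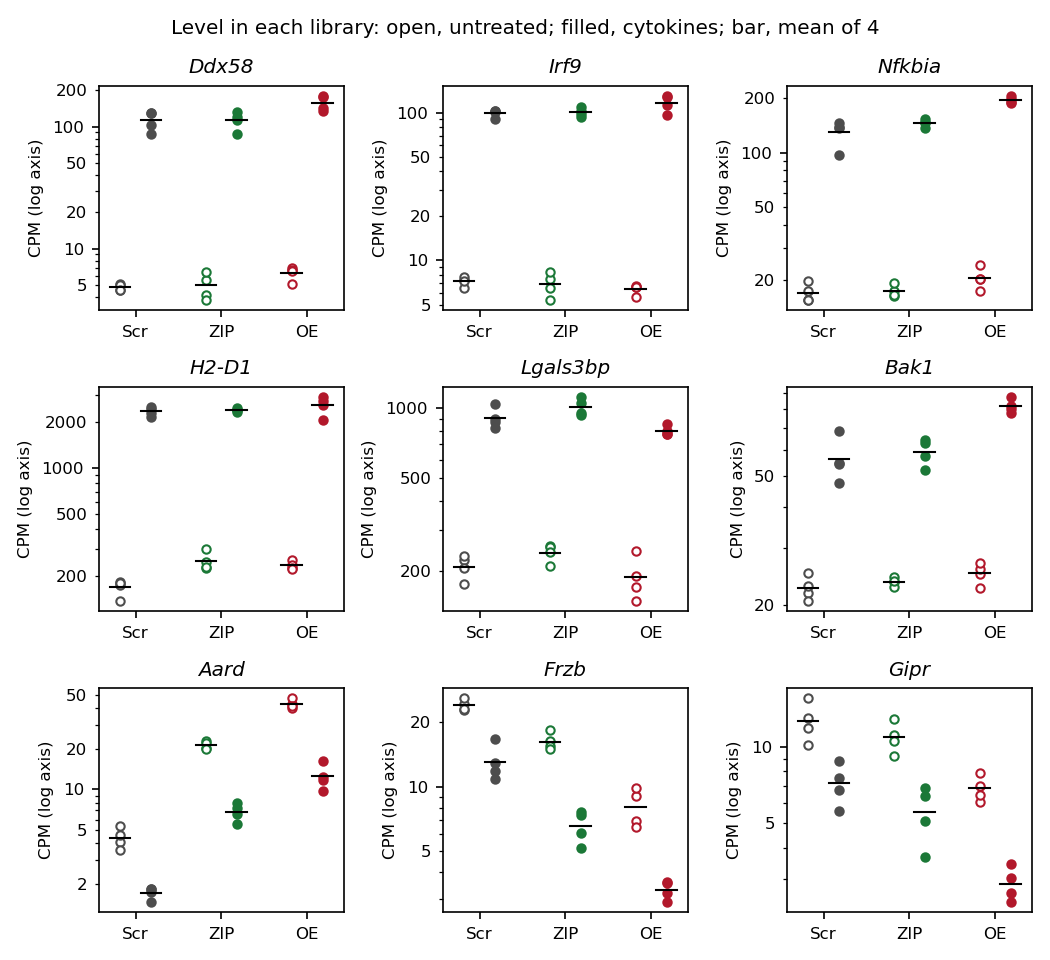
CPM on a log axis of 9 genes in each of the 24 libraries, by line, with open circles for untreated and filled circles for cytokine-treated libraries and a bar at the mean of 4. Treated and untreated libraries of a line are separate in every panel, the untreated level of Aard rises from Scr to ZIP to OE, and that of Frzb and Gipr falls.

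The falls of similar extent were smaller than the rises, with a median log2 fold change of -0.90 and none below -1.90. Aard, an alanine and arginine rich protein (chr15:52040107-52045722), fell most among the named genes. It had 5.37, 4.08, 4.66 and 3.59 CPM in Scr and 1.76, 1.86, 1.48 and 1.86 in Scr+Cy. It had 22.8, 20.1, 22.1 and 19.9 in ZIP and 7.89, 5.60, 6.59 and 7.35 in ZIP+Cy. In OE it had 42.9, 40.0, 47.1 and 41.1, and in OE+Cy 16.3, 12.3, 9.76 and 11.7. The groups did not overlap within a line, and OE+Cy stayed above untreated Scr. Log2 fold changes of Aard were -1.35, -1.63 and -1.78, with -1.62 ± 0.084 over all lines (adjusted p = 2.60e-14, edgeR).

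The other largest falls of similar extent, at a mean of at least 5 CPM in untreated libraries, were those of Gfra1, Rph3a, Diras2, Spock3 and Frzb. Rph3a (rabphilin 3A, a vesicle protein that binds RAB3A) ran from 4.57 to 8.21 CPM untreated and from 1.31 to 3.79 treated, with log2 fold changes of -1.43, -1.64 and -1.30. Frzb, a secreted inhibitor of WNT ligands, was at 24.1 ± 1.43 and 13.1 ± 2.62 CPM in Scr and Scr+Cy, at 16.3 ± 1.51 and 6.55 ± 1.13 in ZIP and ZIP+Cy, and at 8.07 ± 1.65 and 3.30 ± 0.328 in OE and OE+Cy (SD, n = 4). Frzb changed by -0.88, -1.32 and -1.28 on the log2 scale. Diras2, a RAS-like GTPase, fell by 1.43, 1.32 and 1.12 on the log2 scale, and Spock3, an extracellular proteoglycan, by 1.07, 1.31 and 1.43. Gfra1, the receptor of GDNF, fell by 1.33, 1.79 and 1.26. In all of these genes each treated library was below each untreated library of its line.

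Lists of β cell identity and function are read against the 4.81% of all genes called lower over all lines and the 0.949% called lower in every line. None of 19 β cell transcription factors was called over all lines, with a median log2 fold change of -0.15. In bulk RNA, fewer β cells with a transcript and less of it per cell cannot be told apart. Pdx1, at -0.10 in Scr, -0.23 in ZIP and -0.90 in OE, differed between lines (interaction adjusted p = 1.98e-06, edgeR). Of 25 genes of insulin production and granules, Slc30a8, Scg2 and Rab3a were called lower over all lines, and only Slc30a8 in every line. Of 21 genes of glucose sensing and excitability, 6 were called over all lines, among them Atp2a3 higher and Slc2a2, Glp1r, Gipr and Ucn3 lower, and only Gipr was shared and of similar extent. Gipr, the receptor of the incretin GIP (chr7:19156063-19170248), was at 12.7 ± 2.28 CPM in Scr and 7.17 ± 1.34 in Scr+Cy, at 10.96 ± 1.51 in ZIP and 5.51 ± 1.44 in ZIP+Cy, and at 6.86 ± 0.773 in OE and 2.88 ± 0.441 in OE+Cy (SD, n = 4). Its treated and untreated libraries did not overlap within a line, and it fell by 0.82, 0.99 and 1.248 on the log2 scale.

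Slc30a8, the zinc transporter of insulin granules (chr15:52295553-52335798), gave nearly the same fold change from very different levels. It had 34.3, 22.3, 18.6 and 12.4 CPM in Scr and 17.6, 12.5, 9.78 and 6.25 in Scr+Cy. It had 173.1, 137.6, 143.9 and 104.9 in ZIP and 99.5, 76.7, 68.3 and 61.0 in ZIP+Cy. In OE it had 351.7, 378.2, 397.4 and 402.1, and in OE+Cy 190.8, 177.8, 174.6 and 196.9. In each line each library was lower than the untreated one of the same number, although the ranges of Scr and Scr+Cy overlapped. The untreated means were 17.4-fold apart, while the log2 fold changes were -0.93 ± 0.26, -0.87 ± 0.23 and -1.05 ± 0.23, within 1.13 times of each other.

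Unequal untreated levels were common among genes with similar responses. At a mean of at least 1 CPM untreated, the similar falls had a median of 2.21-fold between the lowest and highest untreated line (0.1 CPM added to each mean), and 46 of 85 (54.1%) were at least 2-fold apart. Similar rises had a median of 1.47-fold, with 62 of 220 (28.2%) at least 2-fold apart. Over all 12420 genes at this level the median was 1.31-fold and 17.3% were at least 2-fold apart. The sets also differed in level, with a median of 8.31 CPM untreated for similar falls, 14.5 for similar rises and 32.0 for all 12420 genes. The part of level in these gaps was not tested. Shared genes that were not of similar extent had medians of 2.19-fold for rises and 2.63-fold for falls. Apart from Slc30a8 and Gfra1, genes of similar extent with the widest gaps and at least 1 CPM in each untreated line were Il20rb, Sparcl1, Lpl and Gprc5c, chosen after their values were seen. Lpl, lipoprotein lipase, was at 120.4 ± 4.87 CPM in Scr, 115.1 ± 15.4 in ZIP and 8.22 ± 2.50 in OE (SD, n = 4), and its log2 fold changes were -0.65, -0.60 and -0.93. Il20rb, a subunit of receptors of the IL-20 family, was at 15.2 ± 0.735, 32.1 ± 0.652 and 1.10 ± 0.151 CPM untreated and rose by 0.77, 0.87 and 0.90. These genes thus kept the order of the lines while moving by a like factor.

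**Figure D5:**
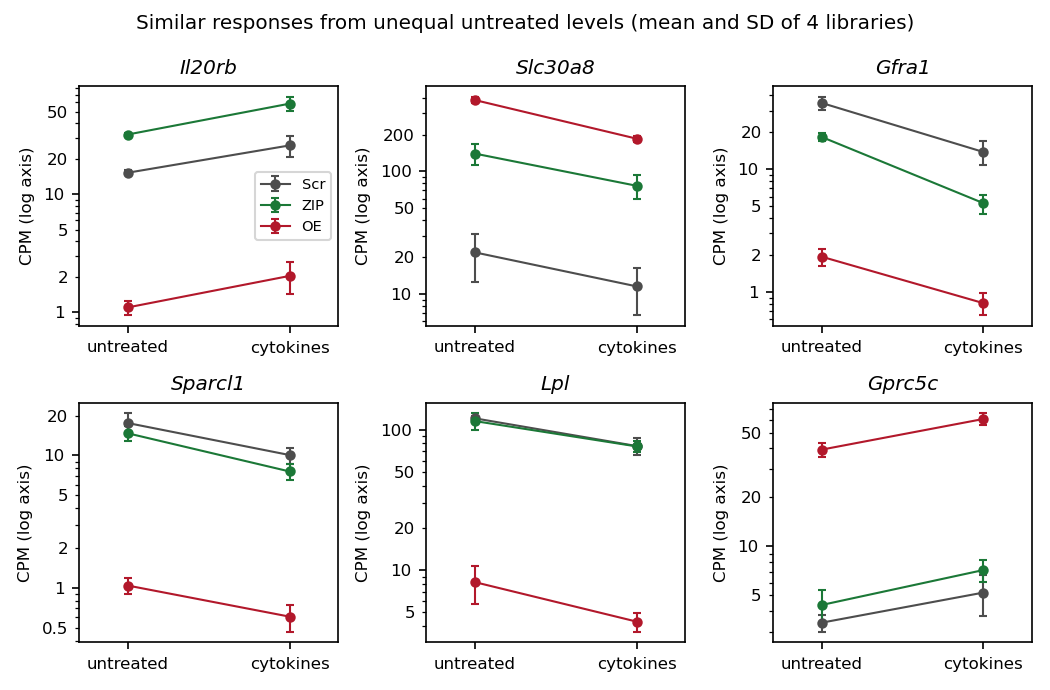
Mean CPM with SD of 4 libraries, on a log axis, without and with cytokines for the 6 genes of similar extent whose untreated level differed most between lines, among those with at least 1 CPM in each untreated line. Lines of a panel run nearly parallel although OE starts 14.5-fold or more from the farthest line in Il20rb, Slc30a8, Gfra1, Sparcl1 and Lpl.

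The remaining lists held no gene of similar extent. Of 22 genes of ER stress and the integrated stress response only Ddit3 (CHOP) was called over all lines, with responses of 0.11, 0.45 and 1.46, and 18 of the 22 passed the interaction test. Of 29 cell cycle genes only Mki67 was called, and 24 passed the interaction test. Over all genes tested, 20.6% passed it. In glycolysis 7 of 22 were called lower, against 4.81% of all genes, and 21 of 22 had a fold change below 1. Ldha, lactate dehydrogenase A, was at -0.50, -1.32 and -2.60, and none of the 7 was called in every line. Of 37 complex I genes of nuclear origin and 18 cholesterol synthesis genes none was called, with median log2 fold changes of -0.10 and -0.12.

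A few genes of similar extent outside these lists were named after their values were seen. Tlr3, a sensor of double-stranded RNA, rose by 4.31, 4.30 and 4.09 on the log2 scale, and Junb, a subunit of AP-1, by 2.07, 2.26 and 2.18. Ifnar2, a subunit of the type I interferon receptor, rose by 1.01, 1.07 and 1.26, and Trp53, which encodes p53, by 0.90, 1.05 and 0.96. Scarb2, a lysosomal membrane protein, rose by 0.60, 0.60 and 0.63. Among falls, Dpp6, a partner of potassium channels, fell by 1.05 over all lines, with fold changes within 1.07 times, and Casr, the calcium-sensing receptor, was at -0.86, -1.20 and -1.26. Hadh, a mitochondrial enzyme of fatty acid oxidation, was at -0.63, -0.69 and -1.05, unequal by the interaction test (adjusted p = 0.00969, edgeR).

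Genes near and beyond the limit show what it separates. Just inside were Tmtc1, with log2 fold changes of 1.33, 1.20 and 1.78, and Dmrta1, with 1.43, 1.38 and 1.96. Just outside were Ildr2, with -0.89, -1.48 and -1.46, and Cdh23, with -0.72, -1.10 and -1.32. C4b, complement component C4, was shared with a very wide range. It had 0.270, 0.604, 1.09 and 0.341 CPM in Scr and 73.8, 113.8, 104.0 and 144.6 in Scr+Cy, while OE had 28.1, 22.6, 27.3 and 26.3 and OE+Cy 45.1, 64.9, 69.3 and 93.3. Untreated means were 0.577 ± 0.373 CPM in Scr, 0.750 ± 1.05 in ZIP and 26.1 ± 2.44 in OE, and treated means were 109.0 ± 29.2, 64.8 ± 25.3 and 68.1 ± 19.8 (SD, n = 4). The treated ranges of the 3 lines overlapped, untreated OE was above every untreated library of the other lines, and the interaction adjusted p was 9.68e-08 (edgeR). H2-Ab1 and Apol6 were also among the widest, with 3 reads or fewer in each untreated OE library, so the OE fold change was at least 416.9 for H2-Ab1 and at least 252.8 for Apol6. In the other direction, 68 genes were called with opposite signs in at least 2 lines. Anxa2, annexin A2, went from 55.2 ± 7.80 to 36.2 ± 7.52 CPM in Scr, from 16.3 ± 3.50 to 10.9 ± 1.71 in ZIP and from 3.09 ± 1.252 to 11.5 ± 4.12 in OE (SD, n = 4; interaction adjusted p = 2.22e-05, edgeR). Its call in ZIP did not hold without the 3 libraries with nerve markers, where the log2 fold change was -0.47 against -0.59. Tph1, which makes serotonin, was higher in ZIP (1.31) and lower in OE (-1.03), with an interaction adjusted p of 0.0227 (edgeR), and each OE+Cy library was below the OE library of the same number. Its OE value was -0.51 without OE replicate 1, -2.05 without OE+Cy replicate 1 and -0.84 to -0.78 without another OE+Cy library, and it was called only in the second of these.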

How the data were processed

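The 24 bulk mRNA libraries of MIN6 cells, 4 in each of 6 groups, were grouped by their labels. The authors checked reads with FastQC and aligned them with STAR to mm10 in Partek (versions 2.7.8a and 11.0.24.0204 in the submitters' processing notes). They removed genes under 10 reads in total and deposited estimated counts per gene, of which 30.3% were not whole. How reads were assigned to genes and with which strand setting was not given in the sources used here, so overlapping, antisense and paralogous genes are uncertain. A normalized table was not used. Some genes are not reported here.

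Estimated counts were rounded. In edgeR 4.0.16 (R 4.3.3, TMM, quasi-likelihood), a model of line and cytokines gave the response over all lines, and a model of 6 group means gave each line's response and the interaction. Adjusted p values are Benjamini-Hochberg over 17696 genes. A standard error is the fold change divided by the root of F. Named were the 6 largest rises and falls of similar extent at a mean of 5 CPM or more in treated libraries (rises) or untreated libraries (falls) without overlap, the 2 most abundant similar genes per list, the 3 widest ranges, the 2 largest opposite pairs and the genes nearest the limit, without predicted symbols. Members, lists and tests were chosen with earlier results of these data known. Deviations from group means of treated and untreated libraries with the same label number correlated at 0.162 to 0.626 over 12670 genes. The labels give all libraries of a number a shared code, so the numbers were taken to pair the samples. The models above had no replicate block, so the reported p-values and standard errors do not use this pairing. A block was run only as an alternative. The scripts were tested on simulated data. Alternatives included DESeq2 1.42.0, other scaling, filters, limits, the replicate block and omitted libraries.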

Additional observations from a re-analysis of the deposited data

Results flagged for a closer look

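In 202 pairs of a named gene and a group of 4 libraries at a mean of 1 CPM or more, 12 had a library far from the other 3 by Dixon's criterion, and chance gives about 1 in 20. Scr+Cy replicate 1 was far in 3 genes, at 2.40 CPM for Slfn8 (others 6.42 to 6.92), 60.9 for Usp18 (others 84.2 to 88.5) and 7.05 for Spock3 (others 4.21 to 4.58). In each of these genes it lay towards the untreated level, and it is one of the libraries with nerve transcripts, whose part was not tested. Tph1 was far at 231.4 CPM in OE replicate 1 (others 73.4 to 93.1), at 151.7 in OE+Cy replicate 1 (others 24.3 to 33.6) and at 111.3 in Scr replicate 2 (others 86.9 to 90.7). OE replicate 1 was also far for Irf9 at 5.68 CPM (others 6.58 to 6.69) and for Tmtc1 at 127.1 (others 86.5 to 93.3). The rest were Gfra1 in ZIP+Cy replicate 3 at 3.91 CPM (others 5.61 to 5.95), Diras2 in OE replicate 2 at 8.52 (others 4.201 to 4.85), H2-D1 in Scr replicate 4 at 136.6 (others 174.2 to 181.6) and Mlkl in ZIP replicate 4 at 11.2 (others 5.82 to 6.66).

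Of the 37 genes named by the rules given above, 9 had cytokine responses that differed between lines by the interaction test in edgeR. Genes mentioned outside these rules, such as Erap1, Tapbpl and Myd88, were not counted here. The adjusted p was 0.00410 for Stat3, 0.0214 for H2-D1, 0.0148 for Trim25, 0.0144 for Gpx1, 0.0328 for Bak1 and 0.0463 for Tmtc1, all within 1.5 times between lines. It was 9.68e-08 for C4b, 2.22e-05 for Anxa2 and 0.0227 for Tph1, which were not of similar extent.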

How the results depend on the processing

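Counts of similar genes followed the limit by construction: within 5/4 times there were 167, of which 126 rose and 41 fell, and within 2 times there were 554, of which 419 rose. With all pairwise 95% intervals within a factor of 2, 56 falls were counted in place of 92. All other alternatives left the counts of called, shared, similar and unequal genes within 1.5 times of those reported. With the replicate number as a block, which the pairing check allows, 2769 genes were called, 1008 were shared, 354 were similar and 4830 had an interaction, of which 348 similar genes were the same as without it. The block ended no other named call than that of Anxa2 in ZIP (-0.58). DESeq2 gave 2419, 964, 338 and 4306. Only genes kept by a filter on low counts (14535) gave 2078, 951, 349 and 3871.

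Leaving out each library in turn gave 2620 to 2863 called, 953 to 1029 shared, 330 to 382 similar and 2918 to 4087 unequal genes. Falls were the most sensitive. Without Scr+Cy replicate 1, which held nerve transcripts, there were 206 shared and 130 similar falls, against 168 and 92. Of the named genes, only Anxa2 in Scr and in ZIP (-0.73 to -0.51 and -0.70 to -0.47) and Tph1 in OE lost a call. Without the 3 libraries with nerve markers, an alternative chosen after seeing the data, there were 242 similar rises and 105 similar falls. Depth limits the comparison of extent for genes near 0 in untreated cells: 201 of the 829 shared rises had a line with 3 reads or fewer in each untreated library.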

Other observations

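Across same-numbered libraries, the pair of replicate 1 gave the smallest response of the similar genes in all 3 lines. Over 241 rises with a mean of at least 1 CPM, the median log2 ratio of a treated library to the untreated one with the same number was 1.06 in replicate 1 of Scr, against 1.10 to 1.247 in the other 3. In ZIP it was 1.04 against 1.18 to 1.23, and in OE 1.21 against 1.29 to 1.38 (0.1 CPM added to each value). Over 80 falls it was -0.68 in replicate 1 of Scr, against -0.85 to -0.77, in ZIP -0.83 against -1.02 to -0.88, and in OE -0.87 against -1.17 to -0.999. This is a description without a test. Replicate 1 of Scr, Scr+Cy and ZIP held nerve transcripts, the sum of 5 nerve markers was 104.8 CPM or less in OE and 88.4 or less in OE+Cy, and the part of these transcripts was not tested.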
